A study of Mus musculus with 6 samples.

Results

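The 42 genes described here encode the machinery that licenses, unwinds, copies and seals DNA in S phase, together with the cyclin E and E2F1 regulators that open that phase. They were chosen by gene symbol from a list of 8 roles and not by a measured value, and all 42 were found among the 25164 symbols of the table. RNA of whole mouse ovaries at day 1 was sequenced in 6 libraries. The 3 cKO libraries came from C57BL/6 animals labelled hnRNPL flox/flox;Stra8-cre, which carry floxed alleles of Hnrnpl and a Cre recombinase transgene driven by the promoter of Stra8, a gene that germ cells switch on at meiotic entry. The 3 WT libraries came from C57BL/6 animals labelled wild type, and the labels do not say whether these carried either allele. The protocol text of all 6 samples mentions a hormone challenge without naming it. The labels do not tie any library to its own animal, so the p-values measure the spread between these libraries, which may be technical.

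As background, replication origins are marked by the origin recognition complex (Orc1 to Orc6), on which CDC6 and CDT1 load the ring of Mcm2 to Mcm7 before S phase, while geminin blocks a second loading. CDC45 and the GINS complex turn that ring into the active helicase, and primase, the polymerases, the clamp PCNA and its RFC loader then copy the DNA. Most of these genes are switched on late in G1 by E2F transcription factors. Oocytes of a newborn mouse have finished their last DNA replication before birth and sit in meiotic prophase, so the cells that still enter S phase in this tissue are mainly somatic.

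Values are FPKM, fragments scaled to transcript length and to mapped fragments. The low FPKM values move in steps of 1 fragment, which put depth at about 7200000 fragments in cKO replicate 1 and 10900000 to 14400000 in the other 5 libraries. A 2 kb transcript at 1 FPKM then had 14.5 to 28.8 fragments. In cKO replicate 1 the summed FPKM was 335667, against 223845 to 246121 in the others. Its short transcripts stood highest, with a median deviation from the gene mean of 0.255 (log2) among the tested genes of the short transcript class and 0.126 among those of the long class, when genes were split by length into 3 equal classes. Because of the higher level in cKO replicate 1, values are also given after median-of-ratios scaling. This divides each library by 1 factor taken from its typical gene, which leaves the difference between short and long transcripts in place. Over all tested genes the median log2 fold change was 0.077 as deposited, and the scaling took that shift away. Hnrnpl stood at 100.5, 81.5 and 85.2 FPKM in the cKO libraries, against 104.1, 93.8 and 101.9 FPKM in the WT libraries. The log2 fold change was -0.17 with an SE of 0.13, and the gene was not called (limma adjusted p = 0.571). After scaling Hnrnpl stood at 85.5, 84.2 and 87.5 in cKO, against 105.3, 95.4 and 107.4 in WT, without overlap. Its scaled log2 fold change was -0.26 (SE 0.08), again without a call (limma adjusted p = 0.15). A gene-level value from whole ovaries does not show the floxed exons or the germ cells separately.

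The E2F motif in the promoter was not used to choose the genes, but most of them are known E2F targets, as stated above. Its shares therefore describe the list and are not an independent result. RefSeq start-site windows of GRCm38.p6, from 250 bases before to 50 after a start, were found for 34 of the 42 genes. The letters TTTCCCGC, TTTGGCGC, TTTCGCGC or TTTGCCGC, or their reverse complements, stood in the windows of 13 of these 34 genes (38.2%), against 5.02% of 9765 tested genes with a window. The share was 31.7% of 41 windows of the replication genes, 4.14% of 12464 windows of the tested genes and 2.26% of all 32851 windows. The CCAAT box, the letters bound by NF-Y, was found in either direction in 64.7% of the 34 genes and in 43.4% of the tested genes. The 4 genes below are shown because their whole printed stretch lies before the first annotated base of the gene. Their stretches of 41 bases are written 5′ to 3′ on the strand of the gene with 1 match in capitals. The Mcm5 stretch also holds the letters TTTCGCGC, which overlap the capitals and are not marked in full.
Mcm6, chr1:128359728-128359768, minus strand: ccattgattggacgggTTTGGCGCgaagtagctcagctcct
Mcm5, chr8:75109344-75109384, plus strand: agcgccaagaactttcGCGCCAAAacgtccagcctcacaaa
Gins3, chr8:95633502-95633542, plus strand: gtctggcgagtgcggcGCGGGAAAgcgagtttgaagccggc
Rfc3, chr5:151651209-151651249, minus strand: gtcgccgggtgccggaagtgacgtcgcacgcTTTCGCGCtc
Mcm6 and Mcm5 carry the same 8 letters in opposite orientation relative to the direction of their own gene. A match describes the letters only, and a window without one says nothing about the factor. In the RNA, the 13 genes with a match had a median log2 fold change of -0.034 and the other 29 genes, 8 of which had no window, one of 0.068. After scaling these medians were -0.117 and -0.011.

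The comparison of cKO with WT ovaries asks how transcript levels respond to a germ cell deletion of Hnrnpl, a splicing regulator. None of the 42 replication and S phase genes passed the test in either direction. All 42 had a mean of at least 1 FPKM over the 6 libraries and were tested among 12442 genes by limma on log2(FPKM + 1), called at a Benjamini-Hochberg adjusted p under 0.05. Over all tested genes 0.121% were called, 0.0482% higher and 0.0723% lower. After scaling 1.29% were called, and the 42 genes again gave 0 calls. At an unadjusted limma p under 0.05 there were 3 of the 42 genes, all with positive fold changes, against 14.2% of all tested genes in either direction, 9.89% higher and 4.26% lower. After scaling there were 10 genes at that level, 4 positive and 6 negative, against 18.9% of all tested genes (1186 positive and 1171 negative).

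The fold changes of the 42 genes were small. They ran from -0.319 for Cdc6 to 0.448 for Rfc4 on the log2 scale, with 24 positive and 18 negative and a median of 0.045, beside a median of 0.077 over all tested genes. After scaling 17 were positive and 25 negative, and the median was -0.039, so the direction of the list as a whole depended on the scaling. The 95% confidence interval lay within a 2-fold change either way for 41 of the 42 genes, against 94.3% of all tested genes. The exception was Rpa3, whose fold change of 1.29 had an interval of 0.826 to 2.02. For 29 of the 42 genes the interval also lay within 1.5-fold, and after scaling for 34. Over all 12442 tested genes it did so for 8332, and after scaling for 9554. These folds are of FPKM + 1, which understates the change of low genes. At a pseudocount of 0.1 FPKM the log2 fold change of Cdc6 was -0.485 in place of -0.319, and 41 intervals again lay within 2-fold, with Rpa3 outside. These intervals are per gene, not adjusted for the number of genes, and a missed threshold does not show that a level was the same. In whole ovaries fewer cells in S phase and less RNA per cell cannot be told apart.

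**Figure D1:**
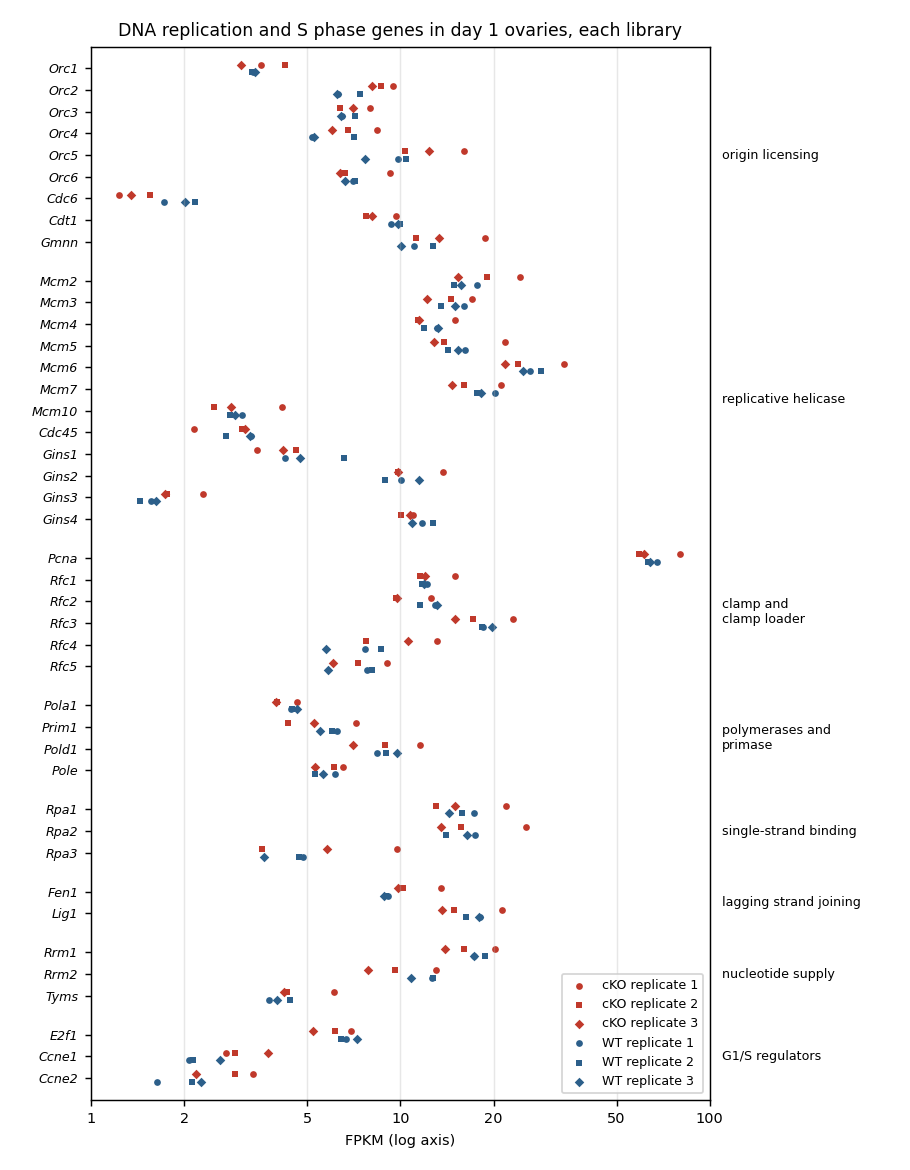
Level of each of the 42 genes in each library, in FPKM on a log axis, with cKO libraries in red above WT libraries in blue and genes grouped by role. Pcna stands to the right of all others, Gins3 and Cdc6 lie lowest, and for 33 of the 42 genes cKO replicate 1 is the rightmost point.

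**Figure D2:**
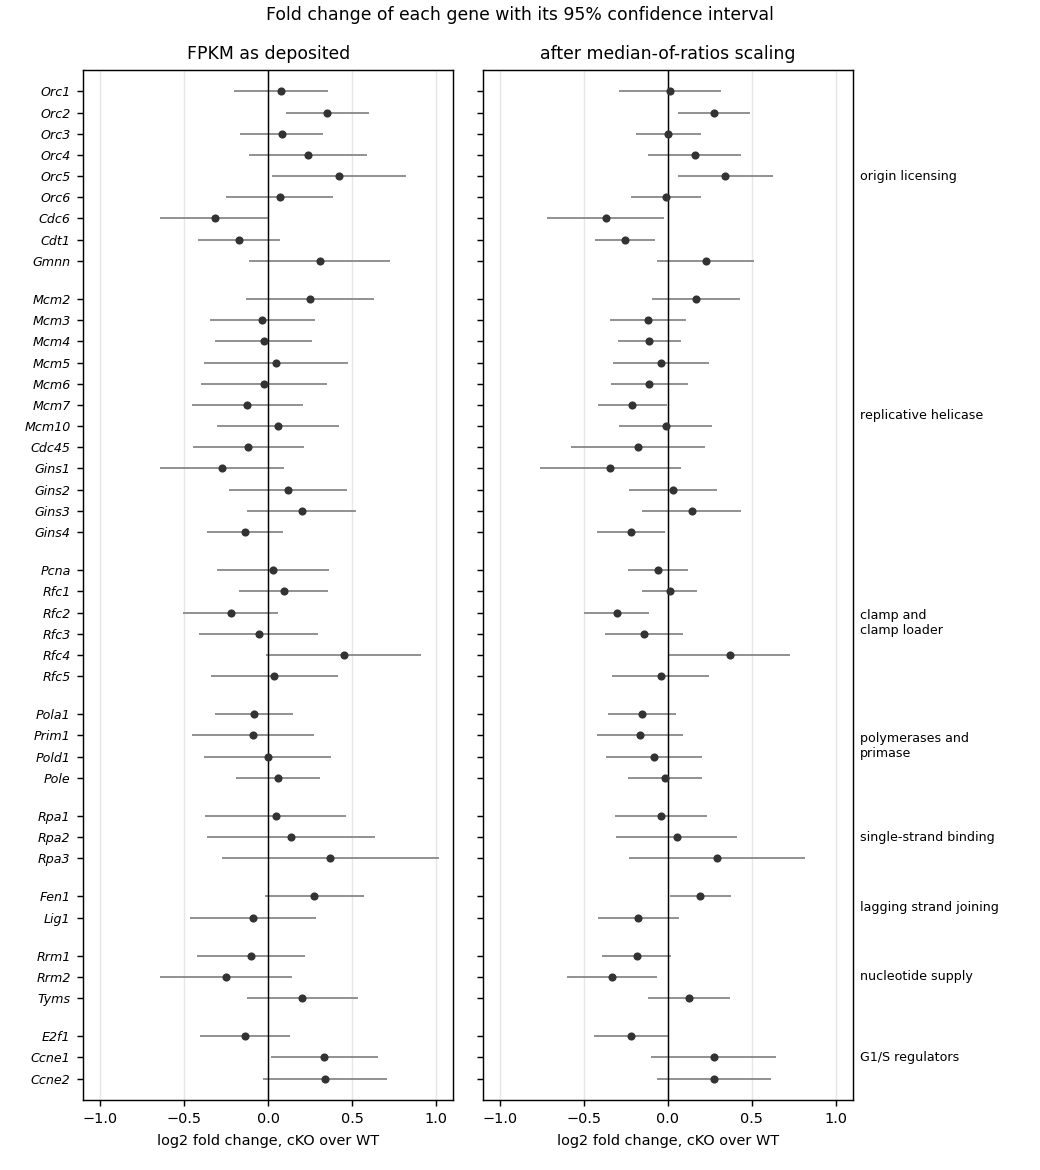
Log2 fold change of each gene, cKO over WT, from FPKM as deposited on the left and after median-of-ratios scaling on the right, with points for the limma estimate and bars for its 95% confidence interval. On the left the points run from -0.319 for Cdc6 to 0.448 for Rfc4, and most bars cross 0 on both sides.

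Origin licensing held the genes with the smallest p. Orc2, the second subunit of the origin recognition complex, had 9.43, 8.68 and 8.07 FPKM in cKO ovaries, against 6.26, 7.40 and 6.22 FPKM in WT ovaries. All 3 cKO values lay above all 3 WT values. Its log2 fold change was 0.35 (SE 0.11, limma adjusted p = 0.227). A two-sided exact permutation test of Orc2 alone gave p = 0.1, the lowest possible with 3 libraries against 3. Orc2 shares 1150 exonic bases with Nif3l1 on the opposite strand (GENCODE M21). No source states whether counting used strand, so reads of such gene pairs cannot be told apart.

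Orc5, another subunit of that complex, had 16.1, 10.3 and 12.4 FPKM in cKO ovaries, against 9.81, 10.45 and 7.67 FPKM in WT ovaries. It shares 90 exonic bases with the pseudogene Gm15421. The groups overlapped through cKO replicate 2, and the log2 fold change was 0.42 (SE 0.17, limma adjusted p = 0.330). After scaling the cKO values of Orc5 were 13.7, 10.7 and 12.7, against 9.92, 10.6 and 8.08 in WT. They no longer overlapped then, and the log2 fold change of 0.34 still did not pass (limma adjusted p = 0.195). The 6 subunits Orc1 to Orc6 all had positive fold changes, from 0.068 for Orc6 to 0.423 for Orc5, with adjusted p of 0.227 or more. After scaling Orc6 was at -0.011, so that direction did not hold for every subunit.

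The loaders had fold changes of the other sign, also without passing. Cdc6 and Cdt1, like Mcm7 and Gins3 below, were singled out after their values were seen. Cdc6, which loads the MCM ring together with CDT1, had 1.23, 1.55 and 1.345 FPKM in cKO ovaries, against 1.71, 2.17 and 2.01 FPKM in WT ovaries. The groups did not overlap, and the log2 fold change was -0.32 (SE 0.14, limma adjusted p = 0.354). Cdt1 had 9.66, 7.76 and 8.09 FPKM in cKO ovaries, against 9.31, 9.97 and 9.81 FPKM in WT ovaries. Its groups overlapped through cKO replicate 1, and after scaling they stood apart at 8.22, 8.02 and 8.31 in cKO against 9.41, 10.2 and 10.3 in WT. The log2 fold change was then -0.25 (SE 0.08, limma adjusted p = 0.136). Gmnn, which encodes the CDT1 inhibitor geminin and had the highest level among the licensing genes, stood at 18.8, 11.2 and 13.3 FPKM in cKO ovaries and at 11.05, 12.7 and 10.04 FPKM in WT ovaries (log2 fold change 0.31, SE 0.18, limma adjusted p = 0.465). Its groups overlapped, and the large value was that of cKO replicate 1.

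None of the 6 subunits of the MCM ring was called. Mean levels of Mcm2 to Mcm7 ran from 12.6 to 26.5 FPKM in cKO and from 12.8 to 26.6 FPKM in WT, with Mcm4 lowest and Mcm6 highest in both. Mcm6 had 33.7, 24.0 and 21.8 FPKM in cKO ovaries, against 26.3, 28.4 and 25.0 FPKM in WT ovaries, a fold change of 0.983 with an interval of 0.757 to 1.28. The cKO libraries lay on both sides of the WT libraries. Mcm2 had 24.4, 19.1 and 15.4 FPKM in cKO ovaries, against 17.7, 14.9 and 15.7 FPKM in WT ovaries (log2 fold change 0.25, SE 0.16, limma adjusted p = 0.507). Over the 6 subunits the log2 fold changes ran from -0.126 for Mcm7 to 0.250 for Mcm2. After scaling Mcm7 stood at 17.9, 16.5 and 15.1 in cKO, against 20.4, 18.03 and 19.2 in WT. These groups no longer overlapped, and the log2 fold change of -0.21 did not pass (limma adjusted p = 0.252). Mcm7 shares exonic bases with Ap4m1 and Cops6 on the opposite strand.

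The factors that activate the ring were less abundant than the ring itself. Mcm10, which helps to start unwinding, averaged 3.15 ± 0.864 FPKM in cKO and 2.94 ± 0.128 FPKM in WT (SD, n = 3 each). Cdc45 averaged 2.79 ± 0.548 FPKM in cKO and 3.09 ± 0.316 FPKM in WT (SD, n = 3 each). The GINS subunits spread widely, from Gins3 at 1.93 FPKM in cKO and 1.54 FPKM in WT to Gins4 at 10.6 FPKM in cKO and 11.8 FPKM in WT and Gins2 at 11.1 FPKM in cKO and 10.2 FPKM in WT. Gins1 had 3.45, 4.58 and 4.18 FPKM in cKO ovaries, against 4.23, 6.54 and 4.74 FPKM in WT ovaries. Its groups overlapped, and its log2 fold change was -0.27 with an SE of 0.16 (limma adjusted p = 0.463). Gins3 did not overlap, with all cKO values above the WT values (exact permutation p = 0.1, n = 3 each). Its log2 fold change of 0.20 had a limma adjusted p of 0.533. Gins2 shares 2758 exonic bases with Gse1 on the opposite strand.

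Pcna, the sliding clamp that holds the polymerases on DNA, had the highest level of the 42 genes. It stood at 80.0, 58.9 and 61.4 FPKM in cKO ovaries, against 67.4, 63.2 and 63.9 FPKM in WT ovaries. Its log2 fold change was 0.03 (SE 0.14, limma adjusted p = 0.937), and 2 of the 3 cKO values lay below all WT values while cKO replicate 1 lay above them. Of the 5 clamp loader subunits, Rfc4 had the largest positive fold change, with 13.1, 7.73 and 10.6 FPKM in cKO ovaries against 7.66, 8.64 and 5.74 FPKM in WT ovaries. The groups overlapped, and the log2 fold change was 0.45 (SE 0.20, limma adjusted p = 0.361). Rfc2 went the other way, with 12.55, 9.67 and 9.78 FPKM in cKO ovaries against 12.95, 11.6 and 13.1 FPKM in WT ovaries (log2 fold change -0.22, SE 0.12, limma adjusted p = 0.443).

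After scaling Rfc2 stood at 10.67, 9.996 and 10.04 in cKO, against 13.1, 11.8 and 13.8 in WT, without overlap. The log2 fold change of Rfc2 was then -0.30, and its limma adjusted p of 0.115 was the smallest of the 42 genes, and over all alternatives the p of Rfc2 reached 0.0775 at the lowest. Rfc2 shares 952 exonic bases with Lat2, and Rfc4 shares 194 with Eif4a2, both on the opposite strand. Rfc1, Rfc3 and Rfc5 had log2 fold changes of 0.093, -0.056 and 0.035.

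The polymerase genes showed the narrowest range of any role, from -0.089 for Prim1 to 0.057 for Pole. Pola1, the catalytic subunit of the polymerase that extends the primer, had 4.64, 3.98 and 3.97 FPKM in cKO ovaries, against 4.41, 4.45 and 4.62 FPKM in WT ovaries (limma adjusted p = 0.719). Prim1, the primase that makes the RNA primer, had 7.17, 4.34 and 5.24 FPKM in cKO ovaries, against 6.24, 5.99 and 5.48 FPKM in WT ovaries (limma adjusted p = 0.807). Pold1, the catalytic subunit of the lagging strand polymerase, had 11.6, 8.92 and 7.02 FPKM in cKO ovaries, against 8.38, 8.95 and 9.77 FPKM in WT ovaries (limma adjusted p = 0.997). The cKO libraries lay on both sides of the WT libraries for Prim1 and Pold1. After scaling all 4 polymerase genes were negative, from -0.166 to -0.018, and none passed.

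The RPA proteins coat single-stranded DNA at the fork. Rpa2 stood at 25.5, 15.7 and 13.5 FPKM in cKO ovaries, against 17.4, 14.05 and 16.4 FPKM in WT ovaries (log2 fold change 0.14, SE 0.22, limma adjusted p = 0.782). Rpa3, the smallest subunit, had 9.73, 3.56 and 5.78 FPKM in cKO ovaries, against 4.84, 4.68 and 3.63 FPKM in WT ovaries (log2 fold change 0.37, SE 0.28, limma adjusted p = 0.551). Both spread widely within cKO, with cKO replicate 1 highest, and both overlapped WT. Rpa1 averaged 16.7 ± 4.66 FPKM in cKO and 15.8 ± 1.49 FPKM in WT (SD, n = 3 each).

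Fen1, the nuclease that trims flaps between lagging strand fragments, had 13.5, 10.2 and 9.84 FPKM in cKO ovaries, against 9.15, 8.99 and 8.87 FPKM in WT ovaries. Every cKO value lay above every WT value, before and after scaling, and the log2 fold change was 0.27 (SE 0.13, limma adjusted p = 0.378) or 0.19 after scaling (limma adjusted p = 0.237). Its exons overlap those of Tmem258 by 130 bases and those of the antisense gene Gm10143 by 1909, both on the opposite strand. Lig1, the ligase that seals the same fragments, had 21.4, 14.9 and 13.6 FPKM in cKO ovaries, against 18.1, 16.3 and 17.97 FPKM in WT ovaries (log2 fold change -0.09, SE 0.16, limma adjusted p = 0.810). Its cKO values lay on both sides of WT.

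Among the nucleotide supply genes, Rrm2, the small subunit of ribonucleotide reductase, had 13.05, 9.61 and 7.83 FPKM in cKO ovaries, against 12.6, 12.8 and 10.8 FPKM in WT ovaries. The groups overlapped through cKO replicate 1 (log2 fold change -0.25, SE 0.17, limma adjusted p = 0.522). After scaling the values of Rrm2 were 11.1, 9.94 and 8.04 in cKO, against 12.8, 13.0 and 11.4 in WT. They then stood apart (log2 fold change -0.33, SE 0.12, limma adjusted p = 0.189). Rrm1, the large subunit, had 20.2, 16.0 and 13.9 FPKM in cKO ovaries, against 17.4, 18.8 and 17.3 FPKM in WT ovaries (limma adjusted p = 0.753). Tyms, the enzyme that makes thymidylate, had 6.11, 4.28 and 4.19 FPKM in cKO ovaries, against 3.76, 4.40 and 3.996 FPKM in WT ovaries, and its groups overlapped (log2 fold change 0.20, SE 0.14, limma adjusted p = 0.536).

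Both cyclin E genes, whose products activate CDK2 at the entry to S phase, had positive fold changes that did not pass. Ccne1 had 2.73, 2.92 and 3.74 FPKM in cKO ovaries, against 2.07, 2.13 and 2.61 FPKM in WT ovaries. The groups did not overlap (log2 fold change 0.33, SE 0.14, limma adjusted p = 0.337), but after scaling they did, at 2.32, 3.02 and 3.84 in cKO against 2.09, 2.17 and 2.75 in WT. Ccne2 had 3.35, 2.93 and 2.18 FPKM in cKO ovaries, against 1.63, 2.12 and 2.26 FPKM in WT ovaries (log2 fold change 0.34, SE 0.16, limma adjusted p = 0.379), and shares 609 exonic bases with Ints8 on the opposite strand. E2f1, the transcription factor, had 6.93, 6.15 and 5.22 FPKM in cKO ovaries, against 6.68, 6.43 and 7.24 FPKM in WT ovaries. Its log2 fold change was -0.14 (SE 0.12, limma adjusted p = 0.592), and after scaling -0.22 without overlap (limma adjusted p = 0.276).

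Counted together, 5 of the 42 genes had groups that did not overlap, 4 with cKO above WT (Orc2, Gins3, Fen1 and Ccne1) and 1 with cKO below WT (Cdc6). Over all tested genes 22.6% did not overlap, 15.5% with cKO above and 7.03% below. After scaling 13 of the 42 did not overlap, 4 with cKO above and 9 below, beside 25.6% of all tested genes, 12.6% above and 13% below. The 9 below were Cdc6, Cdt1, Mcm7, Gins4, Rfc2, Pola1, Rrm1, Rrm2 and E2f1. In 13 of the 42 genes some exonic bases are shared with another tested gene, nearly always on the opposite strand.

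The deposited values were highest in 1 library for most of these genes. Of the 42 genes 33 had their highest value in cKO replicate 1 (78.6%), as had 58.0% of all tested genes, and after scaling 14 had it there (33.3%), as had 26.3% of all tested genes. The summed level of the 42 genes was 581, 429 and 418 FPKM in the cKO libraries, against 466, 456 and 446 FPKM in the WT libraries. After scaling the sums were 494, 444 and 429 in cKO, against 472, 464 and 470 in WT, and the groups overlapped on both scales. Without cKO replicate 1 the median log2 fold change of the 42 genes was -0.105, and without cKO replicate 3 it was 0.117. None of the 42 genes was called with any library left out.

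Related pathway genes gave few calls. Of 95 further genes in 6 lists (replisome and origin firing, nucleotide supply, replication-coupled chromatin, G1/S control, meiotic MCM relatives and mitosis) 93 were tested, with 0 called and a median log2 fold change of -0.012. After scaling 1 was called higher and 1 lower, beside 1.29% of all tested genes (95 higher and 66 lower). At an unadjusted limma p under 0.05 there were then 4 higher and 19 lower of the 93. Over all 12442 tested genes 18.9% were at that level, 1186 higher and 1171 lower. Among the 93 genes, groups did not overlap for 5 with cKO above and 25 with cKO below, beside 12.6% and 13% of all tested genes. The median of the 93 genes after scaling was -0.091. Cdc7, the kinase that phosphorylates the loaded MCM ring to fire origins, had 8.03, 7.49 and 5.79 FPKM in cKO ovaries, against 4.09, 3.89 and 4.04 FPKM in WT ovaries. Its log2 fold change was 0.68 (SE 0.12, limma adjusted p = 0.0898), and 0.61 after scaling (SE 0.11, limma adjusted p = 0.0411). That call held without cKO replicate 3 and was lost without any 1 of the other 5 libraries (limma adjusted p from 0.0948 to 0.209). It was also lost when the replicate block was added to the scaling (limma adjusted p = 0.114), and TPM rescaling of Cdc7 gave no call (limma adjusted p = 0.083). Of 17 alternatives to the test of the deposited values, 4 called Cdc7, median-of-ratios scaling among them. Dbf4, which encodes the partner that activates CDC7 and was chosen after its values were seen, had 10.9, 8.81 and 7.13 FPKM in cKO ovaries, against 9.06, 8.94 and 7.97 FPKM in WT ovaries (limma adjusted p = 0.947).

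Mki67, a protein of cycling cells used as a proliferation marker, had 13.3, 11.6 and 10.9 FPKM in cKO ovaries, against 16.9, 18.1 and 15.9 FPKM in WT ovaries. Its log2 fold change was -0.47 (SE 0.11, limma adjusted p = 0.148), and -0.55 after scaling (SE 0.08, limma adjusted p = 0.02). This call held without cKO replicate 1 or cKO replicate 3, and was lost without cKO replicate 2 (limma adjusted p = 0.0795) or without WT replicate 1, 2 or 3 (limma adjusted p = 0.157, 0.0956 and 0.116). With the replicate block added to the scaling Mki67 was not called either (limma adjusted p = 0.0766). Of 17 alternatives to the test of the deposited values, 5 called Mki67, median-of-ratios scaling among them. The summed level of 16 mitosis genes was 139, 105 and 98.4 FPKM in cKO, against 125, 127 and 112 FPKM in WT. After scaling it was 119, 109 and 101 in cKO, against 126, 129 and 118 in WT, and the groups overlapped on both scales.

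The other pathway lists had no called member as deposited or after median-of-ratios scaling. Their smallest p belonged to Tk1 and Dut for nucleotide supply, Uhrf1 and Nasp for replication-coupled chromatin, Ccnd1 and E2f8 for G1/S control, and Mcm8 and Mcm9 for the meiotic relatives. Tk1, the salvage enzyme thymidine kinase, had 10.2, 6.07 and 9.29 FPKM in cKO ovaries, against 12.1, 13.5 and 11.2 FPKM in WT ovaries (log2 fold change -0.50, limma adjusted p = 0.279). Uhrf1, which recruits the maintenance methyltransferase to new DNA, had 25.0, 18.8 and 17.0 FPKM in cKO ovaries, against 27.6, 25.1 and 24.2 FPKM in WT ovaries (log2 fold change -0.34, limma adjusted p = 0.358). Ccnd1, cyclin D1, had 7.76, 5.78 and 6.91 FPKM in cKO ovaries, against 9.59, 8.44 and 8.34 FPKM in WT ovaries (log2 fold change -0.33, limma adjusted p = 0.294). The groups did not overlap for Tk1 and Ccnd1, and did for Uhrf1 through cKO replicate 1. After scaling Uhrf1 stood apart, at 21.3, 19.4 and 17.4 in cKO against 27.96, 25.5 and 25.5 in WT (limma adjusted p = 0.0666). It was called lower with quantile normalization (limma adjusted p = 0.0383) and with TPM rescaling (limma adjusted p = 0.0412). No call of Uhrf1 came with library weights, the length correction, or the replicate block added to the scaling (limma adjusted p = 0.078, 0.12 and 0.118). Leaving out any 1 library after scaling gave none either (limma adjusted p from 0.0623 to 0.245).

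Summed marker levels of several cell types of the tissue stood apart between the groups, and their part in the values above was not tested. The summed level of 15 germ cell markers was 294, 215 and 160 FPKM in cKO, against 140, 149 and 136 FPKM in WT. That of 9 stroma markers was 952, 851 and 869 FPKM in cKO, against 1140, 1100 and 1090 FPKM in WT. Sums of the surface epithelium list (7 genes), the endothelial list (7 genes) and the smooth muscle and pericyte list (5 genes) were also below every WT library in all 3 cKO libraries, on both scales. Those of 11 pregranulosa markers were 566, 448 and 459 FPKM in cKO and 460, 443 and 459 FPKM in WT. Sums for 6 macrophage markers were 12.1, 10.3 and 11.1 FPKM in cKO and 14.1, 11.4 and 12.6 FPKM in WT. Those for 6 erythroid markers were 164, 312 and 340 FPKM in cKO and 468, 495 and 518 FPKM in WT, without overlap. Of the 4 erythroid markers tested as single genes, 3 had a negative and 1 a positive fold change. As deposited, 0 of these 4 had groups without overlap, and after scaling 1 had. Stra8 was listed at 0 in all 6 libraries, and no other marker was listed at 0 in any library.

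Among the single markers Zp3 and Upk1b were called lower as deposited. With 1 library left out, the Zp3 call held only without WT replicate 3 and the Upk1b call only without cKO replicate 1, and both had a limma adjusted p of 0.269 without WT replicate 1. The replicate block ended both calls as well (limma adjusted p = 0.0617 for Zp3 and 0.0539 for Upk1b). After scaling Dazl, Tex15 and Sohlh1 were called higher, and Gdf9, Zp3, Krt19, Nr2f2, Upk3b, Upk1b, Lhx9 and Acta2 lower. Each of these 11 scaled calls was lost without WT replicate 1 (limma adjusted p from 0.108 to 0.227), and most of them without other single libraries too. With the replicate block added to the scaling, the calls of Dazl, Sohlh1, Gdf9, Krt19, Nr2f2, Lhx9 and Acta2 were lost. After scaling the germ cell list had called members in both directions. Egfl7 and Robo4 (endothelial), Csf1r and C1qa (macrophage) and Alas2 and Hba-a2 (erythroid), which had the smallest p of their lists, were not called on either scale. Hba-a2 has a near-identical copy, so its value is uncertain.

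**Figure D3:**
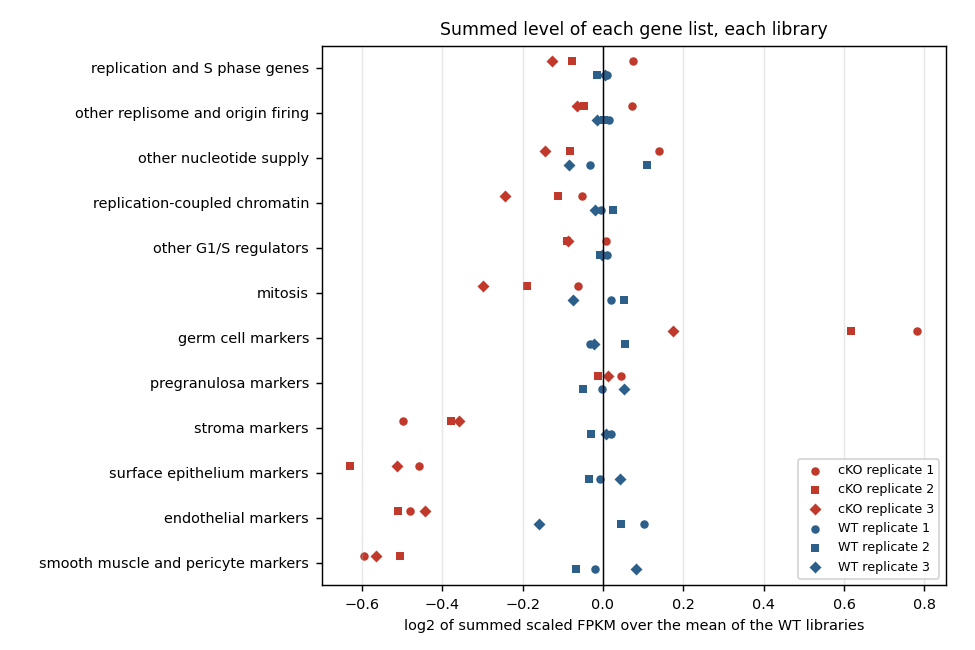
Summed FPKM of each gene list in each library after median-of-ratios scaling, as log2 of its ratio to the mean of the WT libraries, with cKO in red above WT in blue. The 42 replication and S phase genes, with sums of 494, 444 and 429 in cKO and 472, 464 and 470 in WT, lie close to 0, germ cell markers lie to the right in all 3 cKO libraries, and stroma, surface epithelium, endothelial and smooth muscle markers lie to the left.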

How the data were processed

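The authors deposited 1 table of FPKM values for 25164 gene symbols in 6 libraries. Per the submitters' processing notes the tools were featureCounts 2.0.6, HISAT2 2.2.1 and STAR 2.7.11a on mm10, with no role stated for any. How FPKM was computed, with which annotation and strand setting, was not stated, and duplicate removal is hinted at only by the table's title. Each of the 6 columns matched 1 sample title.

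The 12442 genes averaging 1 FPKM or more were compared on log2(FPKM + 1), cKO over WT, with limma 3.58.1 in R 4.3.3 (intensity trend, two-sided moderated test, Benjamini-Hochberg adjustment over all tested genes). Fold changes on this scale understate changes of low genes. The steps were tested on simulated data. Depth was estimated in 2437 genes with 1 annotated transcript (GENCODE M21) of at least 1500 bases, assuming 200-base fragments. Promoter sequences and coordinates came from RefSeq (GRCm38.p6). The 42 genes, the other lists and the tests were chosen with earlier results of these data known. Values in every library were given by rule for members called on either scale and, in each role, for the 2 with the smallest p and the one with the highest mean; in the other lists, called genes or else the 2 with the smallest p were named. Cdc6, Cdt1, Mcm7, Gins3, Dbf4 and the low meiotic genes fall outside that rule and were chosen after their values were seen. Alternatives were other pseudocounts, filters, scalings, weights, a replicate block, a correction for transcript length and leaving out each library. Whether the replicate numbers pair the libraries was not settled.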

Additional observations from a re-analysis of the deposited data

How the results depend on the processing

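In 23 alternatives, 17 that each changed the test of the deposited values and 6 with a library left out after median-of-ratios scaling, 0 of the 42 replication genes were called, and the lowest adjusted p was 0.0775 (Rfc2 with TPM rescaling). Of the 42 genes 21 kept their direction in every alternative in which they were tested, 12 higher and 9 lower in cKO, and 21 changed it in at least 1. No such count over all tested genes is set beside these. The median log2 fold change of the 42 genes was -0.160 with TPM rescaling. With a library left out it ran from -0.105 to 0.117, and after scaling from -0.103 (without cKO replicate 1) to 0.006. The count of all genes called was 15. It was 34 with a pseudocount of 0.1 FPKM, 5 with no filter, 23 when genes under 5 FPKM were dropped, 161 with median-of-ratios scaling, 236 with quantile normalization, 149 with TPM rescaling, 5 without the intensity trend, 172 with library weights, 183 with the length correction and 1 to 23 with a library left out. After median-of-ratios scaling it was 2 to 154 with a library left out. With the replicate block 2 genes were called, and 25 with the replicate block and scaling, while the 42 genes gave 0 in both. Same-numbered libraries had correlations of -0.011, 0.039 and 0.068 in their deviations, against -0.066 to 0.028 for libraries with different numbers. These values cannot show whether the numbers pair the libraries, because libraries made together need not share deviations. The cause of these changes was not tested. Depth was estimated, not given, and no test of its effect on the low genes was made.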

Other observations

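Of the 5 meiotic relatives of the MCM ring and their partners, Meiob and Mcmdc2 were below the level needed for the main test. Meiob, a single-strand binding protein of meiotic recombination, had 0.725, 0.847 and 0.537 FPKM in cKO ovaries, against 0.0906, 0.381 and 0.177 FPKM in WT ovaries. The groups did not overlap at these low levels, and with no filter Meiob was not called (limma adjusted p = 0.244). Mcmdc2 stood at 0.235, 0.236 and 0.347 FPKM in cKO and at 0.369, 0.0616 and 0.268 FPKM in WT. Spata22, the partner of MEIOB, stood at 2.001, 1.498 and 0.371 FPKM in cKO and at 0.808, 1.25 and 0.809 FPKM in WT (limma adjusted p = 0.815). Mcm8 had 5.29, 2.74 and 2.84 FPKM in cKO and 2.51, 2.79 and 2.39 FPKM in WT, with the highest value in cKO replicate 1.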
